A study of Homo sapiens with 2 samples.

Results

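The genes described here encode the HSP70 and HSP90 chaperones of the cytosol and their partners, and they comprised 10 of the 57485 genes listed in both expression tables. The members were HSPA8, HSPA1A and HSPA1B of the HSP70 family, HSPA4 and HSPH1 of the HSP110 family, HSP90AA1 and HSP90AB1, the HSP40 genes DNAJB1 and DNAJA1, and the small heat shock protein gene HSPB1. They were chosen by name, with the expression ratio between these same libraries already known, so their ratios are a description, with no test. Poly(A) RNA of ARP1, a human multiple myeloma cell line, was sequenced in 2 libraries, 1 per condition. Both libraries came from ARP1 cells carrying a lentiviral short hairpin against SRD5A1, an enzyme that converts testosterone to dihydrotestosterone, under a promoter that doxycycline (Dox) switches on (TRIPZ vector). Whether the cells were a single clone is not given in the sources used here. The cells without Dox were labelled untreated, the other cells were treated with Dox, and the dose and duration were not given for these libraries. The genotype label of the library with Dox names SRD5A2, whereas its title and the series design name SRD5A1. No library of cells without the hairpin, or with a control hairpin and Dox, was analysed here, so an effect of Dox itself cannot be told apart from that of the hairpin.

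The targeted gene was examined first. Without Dox SRD5A1 had 1375 expected counts (13.04 FPKM), and with Dox it had 3013.99 expected counts (25.88 FPKM). Its level was therefore higher in the library labelled with Dox, by a log2 ratio of 0.98, which is not the direction of a lower RNA level, and every direction below rests on the library labels. FPKM is a fragment count scaled to transcript length and to the size of the library, and an expected count is an estimated number of fragments that need not be whole. The libraries held 45918570 and 48728927 expected counts. Genes that reached 1 FPKM in at least 1 library are called tested genes, a word that here stands for passing this minimum. There were 14859 of them, and all 10 members passed. Ratios are log2 ratios of FPKM with a pseudocount of 0.1, with Dox over without Dox, each with the 95% interval that counting error alone allows (exact binomial, Clopper-Pearson). As there was 1 library per condition, no spread between replicates was measured and no difference was tested. The 8 plasma cell markers examined summed to 2398.37 FPKM without Dox and 2304.81 with Dox. The 10 markers of T cells, monocytes, epithelium, stroma, endothelium, erythroid cells and B cells summed to 9.54 and 5.74 FPKM. Most of the sum without Dox came from the epithelial marker KRT18, with 6.0 FPKM without Dox and 1.44 with Dox (log2 ratio -1.99). With Dox, KRT18 did not make up most of the sum, and EPCAM had 1.52 and HBB 1.39 FPKM there. EPCAM and HBB were named after their values were seen. Of these 10 markers 3 were tested genes, 2 with a log2 ratio below 0 and 1 above. Of the plasma cell markers, 4 had a log2 ratio below 0 and 4 above, with SLAMF7 (1.40) and TNFRSF17 (1.06) more than 2-fold higher and SDC1 the lowest (-0.54).

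Chaperones of the HSP70 family bind exposed hydrophobic stretches of unfolded proteins in a cycle driven by ATP. HSP40 proteins deliver the client and speed up ATP hydrolysis, whereas HSP110 proteins and BAG proteins exchange the bound nucleotide so that the client is released. HSP90 acts later, on near-native clients such as steroid receptors and kinases, with co-chaperones that load the client or time the ATP cycle. Some genes of these families, such as HSPA8 and HSP90AB1, are expressed in most cells at all times, and others, such as HSPA1A and HSPA1B, are switched on by the heat shock factor HSF1 when proteins unfold. HSF1 binds heat shock elements, which are alternating repeats of GAA and TTC. Plasma cells and myeloma cells make large amounts of immunoglobulin and depend strongly on protein folding.

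The heat shock element letters near the starts of the members are shown because these genes are best known as targets of HSF1. RefSeq promoter windows of GRCh38.p14, from 250 bases before to 50 bases after a transcript start, were matched by symbol for all 10 members and searched for GAANNTTC and TTCNNGAA (2 alternating units) and for GAANNTTCNNGAA and TTCNNGAANNTTC (3 units). The 2-unit forms read the same on both strands, the 3-unit forms are each other's reverse complement, and every 3-unit match also contains both 2-unit forms. Every 3-unit match of the members is printed below, and 2-unit matches are printed for members without a 3-unit match, with capitals on the element letters.
HSPA8 distal: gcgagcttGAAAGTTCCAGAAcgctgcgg
HSPA8 proximal: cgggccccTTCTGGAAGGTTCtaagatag
HSP90AB1 distal: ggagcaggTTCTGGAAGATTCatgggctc
HSP90AB1 proximal: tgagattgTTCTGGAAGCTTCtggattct
HSP90AA1: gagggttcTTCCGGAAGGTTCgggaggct
DNAJA1: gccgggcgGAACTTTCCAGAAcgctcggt
HSPA1A: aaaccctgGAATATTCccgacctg
HSPA1B: aacccctgGAATATTCccgacctg
DNAJB1 first window: ctcggccaGAAGCTTCtagcatgt
DNAJB1 second window, distal: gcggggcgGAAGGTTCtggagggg
DNAJB1 second window, proximal: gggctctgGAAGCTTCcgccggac
HSPB1: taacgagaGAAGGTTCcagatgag

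The HSPA8 stretches lie on the minus strand at chr11:123062346-123062374 and chr11:123062171-123062199, with their elements at positions -230 to -218 and -55 to -43 from the start. Other HSPA8 transcripts begin further upstream, so both stretches also overlap exons of annotated HSPA8 transcripts in GENCODE 29, untranslated in part. The HSP90AB1 stretches, at chr6:44247770-44247798 and chr6:44247823-44247851 on the plus strand, lie within the third of its 3 windows and within introns of 3 longer transcripts. The HSP90AA1 stretch is at chr14:102087112-102087140 on the minus strand, in an untranslated exon of 1 longer transcript, and the DNAJA1 stretch at chr9:33025268-33025296 on the plus strand, in an untranslated exon, spans the RefSeq transcript start, with its element at positions 4 to 16 after it. The HSPA1A and HSPA1B stretches, at chr6:31815429-31815452 and chr6:31827625-31827648 on the plus strand, each lie upstream of their gene. The DNAJB1 stretches are at chr19:14517921-14517944 in the first of its 3 windows, and at chr19:14518459-14518482 and chr19:14518429-14518452 in the second, on the minus strand and within introns of longer DNAJB1 transcripts, and the HSPB1 stretch is at chr7:76302483-76302506 on the plus strand, upstream of the gene.

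A 2-unit match was present in the windows of 8 of the 10 members, which have 1 to 3 windows each. By gene, 1220 of the 8972 tested genes with a window had such a match. By single window, it was present in 13.5% of all 35116 windows of the same length. A 3-unit match was present for 4 members, namely HSPA8, HSP90AB1, HSP90AA1 and DNAJA1. By gene, it was present for 43 of the 8972 tested genes, and by single window in 0.490% of all windows. HSPA4 and HSPH1 had neither form in these windows. A match of letters is a description and not a measured binding site. The map of elements along the promoter windows shows their positions.

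**Figure D1:**
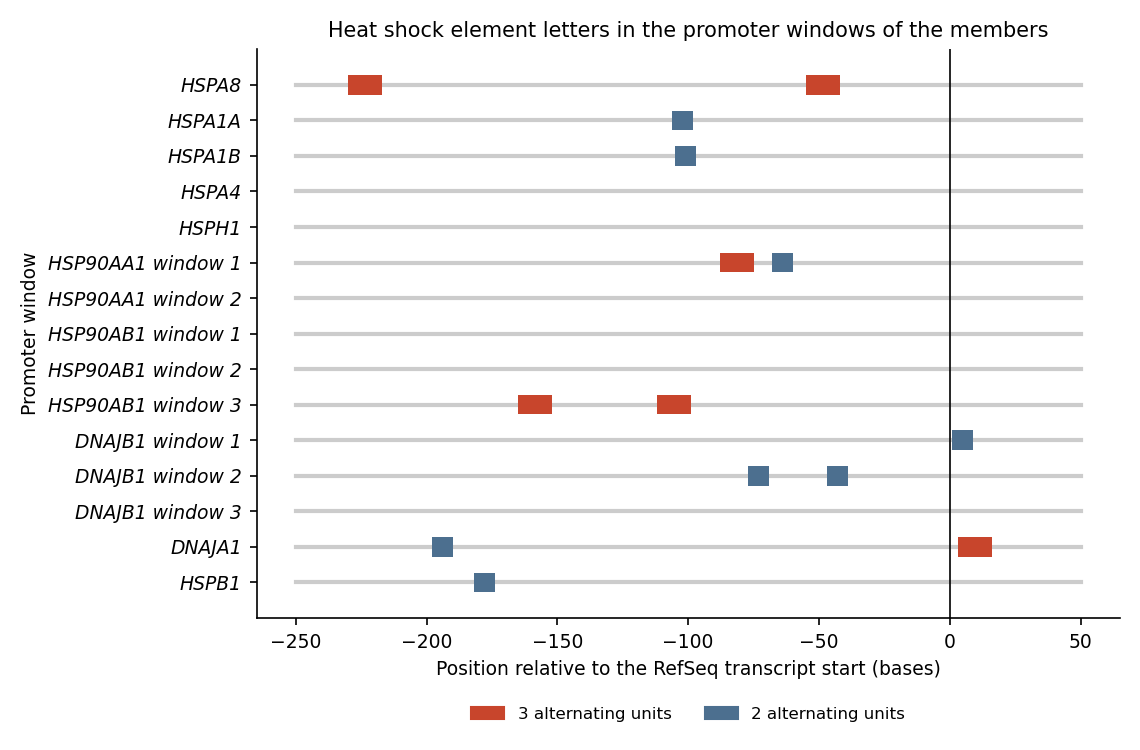
Positions of heat shock element letters in the RefSeq promoter windows of the 10 members, in bases from the transcript start (vertical line), with 1 row per window. Red boxes are 3-unit and blue boxes 2-unit matches. HSPA8 and the third HSP90AB1 window each hold 2 separate 3-unit matches, and HSPA4 and HSPH1 hold no match.

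All 10 members were lower in the Dox-labelled library than in the untreated one, beside 6165 of all 14859 tested genes with a log2 ratio below 0. The members together summed to 4928.29 FPKM without Dox and 1260.2 FPKM with Dox, and took 0.822% and 0.250% of all expected counts. In bulk RNA, fewer cells expressing a gene and less RNA per cell cannot be told apart. The median log2 ratio of the members was -1.43, beside 0.15 over all tested genes. Relative to that overall median, the members ran from -2.94 (HSPA8) to -0.40 (HSPA4). More than 2-fold lower were 7 of the 10 members, and none was more than 2-fold higher. Of all tested genes, 953 or 6.41% were more than 2-fold lower and 2521 or 17.0% more than 2-fold higher. Among the 8428 genes that reached 10 FPKM in either library, which include all the members, these shares were 5.89% and 10.1%. Under the edgeR TMM scaling, 1375 tested genes were more than 2-fold lower and 1809 higher, so that 56.8% of the genes past 2-fold were higher instead of 72.6%. Because the members were proposed from this same contrast, nothing is read from their count beside these shares.

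**Figure D2:**
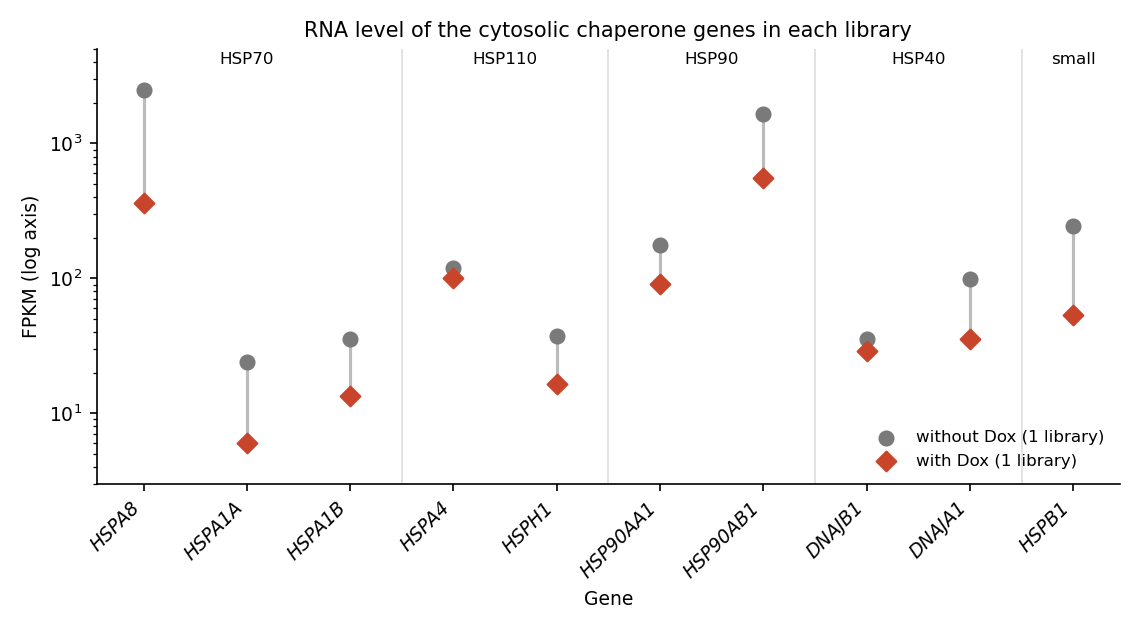
FPKM of the 10 members on a log axis, in the library without Dox (grey circles) and with Dox (red diamonds), 1 library each, grouped by family. Every red diamond sits below its grey circle, with the widest gap for HSPA8 (2507.25 and 364.23 FPKM).

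HSPA8 encodes HSC70, the constitutive cytosolic HSP70, which also uncoats clathrin vesicles and delivers proteins to lysosomes. Its gene (ENSG00000109971.13) lies at chr11:123057489-123063230 on the minus strand in GENCODE 29, on GRCh38. HSPA8 had 134712 expected counts and 2507.25 FPKM without Dox, and 21382.06 expected counts and 364.23 FPKM with Dox. HSPA8 was thus 6.88-fold lower in the library with Dox, with a log2 ratio of -2.78 (-2.80 to -2.76). Over all rows, including some with an effective length near 1 base, HSPA8 ranked 54th by FPKM without Dox and 249th with Dox. Of all tested genes, 0.51% had a lower ratio. Its share of the members' summed FPKM was 50.9% without Dox and 28.9% with Dox.

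HSPA1A and HSPA1B are neighbouring, nearly identical genes for the stress-inducible HSP70. HSPA1A (ENSG00000204389.9, chr6:31815464-31817946, plus strand) had 2474.93 expected counts and 24.06 FPKM without Dox, and 649.54 expected counts and 5.96 FPKM with Dox. HSPA1B (ENSG00000204388.6, chr6:31827735-31830255, plus strand) had 3686.79 expected counts and 35.25 FPKM without Dox, and 1482.5 expected counts and 13.37 FPKM with Dox. HSPA1A was 3.99-fold lower, with a counting interval of -2.12 to -1.87 on the log2 scale, and HSPA1B was 2.62-fold lower, with a log2 ratio of -1.39 (-1.48 to -1.31). Both were lower with Dox, and the intervals of the pair did not overlap. However, 67.1% of all 150-base windows of the longest coding HSPA1A transcript also occur in that of HSPA1B, and the expected counts are fractional, so the split of reads within the pair is uncertain. Summed, the pair had 6161.72 expected counts without Dox and 2132.04 with Dox, and the summed counts do not depend on the split. The log2 ratio of the summed FPKM was -1.62. HSPA8 was 42.3 times as abundant in FPKM as the inducible pair without Dox, and 18.8 times with Dox. HSPA6, another stress-inducible HSP70 gene that is nearly silent in unstressed cells, had 58.84 and 26.0 expected counts and stayed below the threshold of 1 FPKM in both libraries. HSPA6 was named after its values were seen. It belongs to a list of 7 other cytosolic HSP70 and HSP110 genes, of which 3 were tested genes. Their median log2 ratio was 0.10, from -1.62 to 0.50, with 1 below and 2 above 0. The 1 below 0 was HSPA2, with 1.22 FPKM without Dox and 0.33 with Dox, so it passed the minimum only through the library without Dox. HSPA2 was named after its values were seen. HSPA14 of this list had 36.19 FPKM without Dox and 38.89 with Dox (log2 ratio 0.10).

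HSPA4 and HSPH1 encode HSP110 proteins, which act as nucleotide exchange factors of HSP70. HSPA4 (ENSG00000170606.14, chr5:133051962-133106449, plus strand) had 13371 expected counts and 119.42 FPKM without Dox, and 12103 expected counts and 100.57 FPKM with Dox, with a log2 ratio of -0.25 (-0.28 to -0.21). HSPH1 (ENSG00000120694.19, chr13:31134974-31162388, minus strand), the heat-inducible member of the pair, had 5698 expected counts and 37.53 FPKM without Dox, and 2696 expected counts and 16.34 FPKM with Dox, with a log2 ratio of -1.19 (-1.26 to -1.13). HSPH1 was more than 2-fold lower and HSPA4 was the member that differed least between the libraries. The ratio of HSPA4 to HSPH1 in FPKM was 3.18 without Dox and 6.15 with Dox. HSPA4 was the fifth member in the order of FPKM without Dox and the third with Dox.

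HSP90AB1 encodes the constitutive HSP90 beta and HSP90AA1 the more inducible HSP90 alpha. HSP90AB1 (ENSG00000096384.19, chr6:44246166-44253888, plus strand) had 176546 expected counts and 1650.74 FPKM without Dox, and 62418 expected counts and 550.57 FPKM with Dox. HSP90AA1 (ENSG00000080824.18, chr14:102080738-102139699, minus strand) had 20665 expected counts and 176.19 FPKM without Dox, and 12612.99 expected counts and 90.86 FPKM with Dox. The log2 ratio was -1.58 (-1.60 to -1.57) for HSP90AB1 and -0.95 (-0.99 to -0.92) for HSP90AA1. Both were lower with Dox, but HSP90AA1 lay just short of 2-fold, whereas HSPH1 lay just beyond it. HSP90AB1 exceeded HSP90AA1 9.37 times in FPKM without Dox and 6.06 times with Dox. HSP90AB1 took 0.385% of all expected counts without Dox and 0.128% with Dox, the largest share of any member in both libraries. In FPKM, HSP90AB1 was the second member after HSPA8 without Dox and the first with Dox, and the ratio of HSPA8 to HSP90AB1 was 1.52 and 0.66. Together HSPA8 and HSP90AB1 made up 84.4% of the members' summed FPKM without Dox and 72.6% with Dox. The mean transcript length assigned to HSP90AA1 was 2797.27 bases without Dox and 3094.35 bases with Dox, and its log2 ratio in CPM (expected counts scaled to library size, which uses no length) was -0.80.

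DNAJA1 and DNAJB1 encode HSP40 proteins that hand clients to HSC70 and HSP70. DNAJA1 (ENSG00000086061.15, chr9:33025211-33039907, plus strand) had 9644 expected counts and 99.08 FPKM without Dox, and 3679 expected counts and 35.58 FPKM with Dox. DNAJB1 (ENSG00000132002.7, chr19:14514770-14529770, minus strand), the partner that is strongly induced by heat, had 2953 expected counts and 35.27 FPKM without Dox, and 2564 expected counts and 29.07 FPKM with Dox. DNAJA1 was 2.78-fold lower, with a log2 ratio of -1.47 (-1.53 to -1.42), and DNAJB1 differed little, with a log2 ratio of -0.28 (-0.35 to -0.20). DNAJA1 exceeded DNAJB1 2.81 times in FPKM without Dox and 1.22 times with Dox. The ratio of HSPA8 to DNAJA1 was 25.3 without Dox and 10.2 with Dox.

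HSPB1 encodes HSP27, a small heat shock protein that holds unfolded proteins without using ATP. HSPB1 (ENSG00000106211.8, chr7:76302544-76304295, plus strand) had 7869 expected counts and 243.5 FPKM without Dox, and 2063 expected counts and 53.65 FPKM with Dox. It was 4.53-fold lower with Dox, with a log2 ratio of -2.18 (-2.25 to -2.11), and was the third member in the order of FPKM without Dox and the fifth with Dox. Its mean transcript length was 946.75 and 1034.76 bases, and its log2 ratio in CPM was -2.01. Of 8 other small heat shock protein genes, 2 were tested genes, and both reached 1 FPKM only in the library with Dox. Both were more than 2-fold higher, beside 17.0% of all tested genes. Passing the minimum through that library alone favours a higher ratio, so nothing is read from their direction. This list summed to 0.84 FPKM without Dox and 2.48 with Dox.

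**Figure D3:**
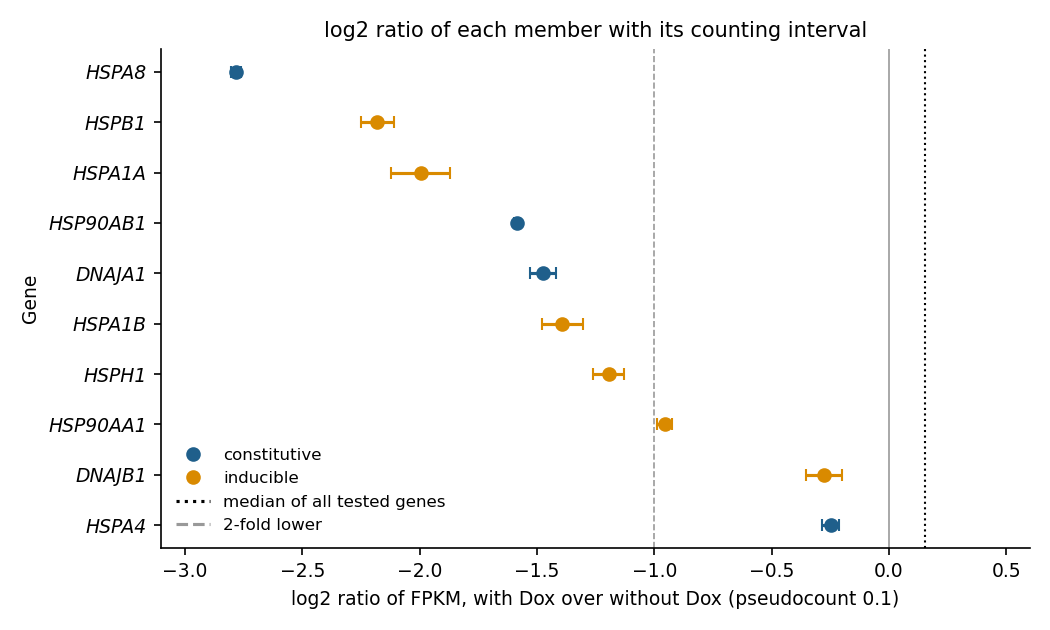
log2 ratio of FPKM, with Dox over without Dox, for each member, with bars for the 95% counting interval only. Blue marks constitutive and orange inducible members, the dotted line is the median of all tested genes at 0.15 and the dashed line is 2-fold lower. HSPA8, HSPB1 and HSPA1A lie furthest to the left, and DNAJB1 and HSPA4 lie near 0.

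The members were divided by textbook knowledge into constitutive genes (HSPA8, HSP90AB1, HSPA4 and DNAJA1) and heat-inducible genes (HSPA1A, HSPA1B, HSPH1, HSP90AA1, DNAJB1 and HSPB1). More than 2-fold lower were 3 of the 4 constitutive genes and 4 of the 6 inducible genes. The median log2 ratio was -1.53 for the constitutive and -1.29 for the inducible members, a difference of -0.24, and the classes overlapped. The constitutive class ranged from -2.78 (HSPA8) to -0.25 (HSPA4), and the inducible class from -2.18 (HSPB1) to -0.28 (DNAJB1). Within families the order also varied. The constitutive gene had the lower ratio among the HSP70, HSP90 and HSP40 genes, and the inducible gene had the lower ratio among the HSP110 genes. DNAJA1 and HSPB1 have both a basal and a heat-induced level, and without them the difference was -0.39.

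Reads shared with other genes were examined. The search covered the 202888 of 204675 listed transcripts that are in GENCODE 29. The remaining ones, of which 840 were assembled, were not searched. Only windows identical over all 150 bases were counted. Apart from HSPA1A and HSPA1B, the longest coding transcripts of the members shared 0 such windows with the searched transcripts of other genes. Pseudogene rows named after HSP90AB1 held 8.0 and 4.0 expected counts, those named after HSP90AA1 held 0 and 6.0, and that named after DNAJB1 held 0 in both libraries. TECR lies on the opposite strand to DNAJB1 and had 5754.18 and 4499.0 expected counts, and WDR20 lies opposite to HSP90AA1 and had 621 and 587.26. No source used here states that strand was used in counting, so reads from the overlaps cannot be told apart.

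The HSP70 exchange factors and regulators other than the HSP110 genes were examined next. Of the 9 genes tested, 8 had a log2 ratio below 0, beside 6165 of all 14859 tested genes. In this list 1 gene was more than 2-fold lower, a share near that of all tested genes, none was more than 2-fold higher, and the median was -0.49. BAG1, which couples HSP70 to the proteasome, had 64.57 FPKM without Dox and 27.77 with Dox (log2 ratio -1.21). HSPBP1, another exchange factor of HSP70, had 44.06 and 23.45 FPKM (-0.91). BAG3, a heat-inducible exchange factor that routes clients to autophagy, had 12.06 and 8.44 FPKM (-0.51), and BAG6, BAG2 and BAG4 had log2 ratios between -0.49 and -0.47. In contrast, the 14 other cytosolic HSP40 genes had a median log2 ratio of 0.03 (-0.20 under edgeR TMM scaling), with 6 below and 8 above 0. DNAJB2 was the 1 gene of this list past 2-fold, with 13.87 FPKM without Dox and 43.92 with Dox (log2 ratio 1.66), beside 17.0% of all tested genes higher. DNAJC2, a ribosome-bound HSP40, had a log2 ratio of -0.76 and DNAJC13, which acts on endosomes, one of 0.74.

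Of the 18 HSP90 co-chaperone genes tested, 15 had a log2 ratio below 0, beside 6165 of all 14859 tested genes, and the median was -0.51. More than 2-fold lower was 1 gene, again a share near that of all tested genes. FKBP4, which encodes the steroid receptor immunophilin FKBP52, had 93.31 FPKM without Dox and 20.99 with Dox, a log2 ratio of -2.15 (-2.20 to -2.09). It was the lowest of the list by a wide margin. AHSA1, the activator of the HSP90 ATPase, had 142.71 and 73.41 FPKM (log2 ratio -0.96). STIP1 (HOP), which bridges HSP70 and HSP90, had 235.58 and 121.93 FPKM (-0.95), and CDC37, which loads kinases, had 229.13 and 122.22 FPKM (-0.91). AHSA1, STIP1 and CDC37 lay close to the ratio of HSP90AA1 and above that of HSP90AB1, whereas FKBP4 lay below both. NUDC had a log2 ratio of -0.98. The ratio of HSPA8 to STIP1 in FPKM was 10.6 without Dox and 2.99 with Dox.

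HSF1 and HSF2 had nearly equal levels in both libraries. HSF1, the main activator of the heat shock response, had 21.28 FPKM without Dox and 21.42 with Dox, a log2 ratio of 0.01 (-0.09 to 0.11). HSF2 had 9.81 and 10.58 FPKM (log2 ratio 0.11, -0.02 to 0.24), HSF4 had 14.33 and 9.2 FPKM (-0.63), and HSBP1, a negative regulator of HSF1, had 74.26 and 58.58 FPKM (-0.34). Other genes of the heat shock response went both ways. Of 8 genes, 2 were more than 2-fold lower and 1 more than 2-fold higher, beside 6.41% and 17.0% of all tested genes. HSPE1, the co-chaperonin of HSP60, had 458.9 and 167.32 FPKM (log2 ratio -1.46), CACYBP had 250.6 and 116.28 FPKM (-1.11), and SERPINH1 (HSP47), the collagen chaperone, had 10.13 and 39.95 FPKM (1.97). IER5 and DEDD2 had log2 ratios of 0.20 and -0.20. RNA levels of the factors do not measure their activity.

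The genes whose promoter windows hold a 3-unit heat shock element were compared, a look taken after the members' values had been seen. Of 43 such tested genes, 3 were more than 2-fold lower, all members (HSPA8, HSP90AB1 and DNAJA1). Of the 39 that are not members, 0 were more than 2-fold lower and 2 more than 2-fold higher, and their median log2 ratio was 0.11. Over all 8972 tested genes with a window, the median was 0.07, 5.83% were more than 2-fold lower and 984 genes were more than 2-fold higher. Among these 39, the lowest of those with at least 5 FPKM were PGAM5 (log2 ratio -0.96), HNRNPA2B1 (-0.94) and XPO1 (-0.88), and the highest was SERPINH1. The co-chaperone genes CHORDC1 and DNAJB6 had log2 ratios of -0.60 and -0.17. At least 2 units were present for 1212 tested genes outside the members, with a median of 0.12 and 5.36% more than 2-fold lower.

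The other chaperone systems of the cell were set beside the members. The cytosolic CCT chaperonin, which folds actin and tubulin, had all 8 tested subunits below 0, beside 6165 of all 14859 tested genes. Its median was -0.73. CCT5 had 442.83 FPKM without Dox and 214.61 with Dox (log2 ratio -1.04). It was the 1 subunit more than 2-fold lower, beside 6.41% of all tested genes. Prefoldin, which delivers clients to CCT, had a median of -0.16 over 6 genes, with PFDN6 and PFDN2 at -0.93 and -0.92. The endoplasmic reticulum chaperones had a median of -0.02 over 16 genes (0.08 in TPM). Past 2-fold in each direction was 1 gene, CALR at -1.01 and HSPA13 at 1.35, beside 6.41% lower and 17.0% higher of all tested genes. The mitochondrial chaperones had a median of -0.41 over 8 genes, with 5 below and 3 above 0. HSPE1, TRAP1 (-1.24) and GRPEL1 (-1.14) were more than 2-fold lower, beside 6.41% of all tested genes. GRPEL2 had 14.3 FPKM without Dox and 25.03 with Dox (0.80). HSPD1, the HSP60 gene, had 481.02 and 504.14 FPKM (0.07) and was named after its values were seen.

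Relatives of HSPA8 and HSP90AB1 in other compartments differed in both directions. HSPA13, an HSP70 gene of the endoplasmic reticulum, had 27.92 FPKM without Dox and 71.42 with Dox (log2 ratio 1.35), and TRAP1, the HSP90 of mitochondria, had 164.79 and 69.76 FPKM (-1.24). HSPA5 (BiP), the HSP70 of the endoplasmic reticulum, had 223.49 FPKM without Dox and 173.41 with Dox (log2 ratio -0.37). HSPA9 (mortalin), that of mitochondria, had 276.06 and 328.12 FPKM (0.25), and HSP90B1 (GRP94), the HSP90 of the endoplasmic reticulum, had 521.68 and 493.41 FPKM (-0.08). HSPA5 and HSP90B1 were named after their values were seen. Per length, HSPA8 exceeded HSPA9 9.08 times without Dox and 1.11 times with Dox. HSP90AB1 exceeded HSP90B1 3.16 and 1.12 times.

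**Figure D4:**
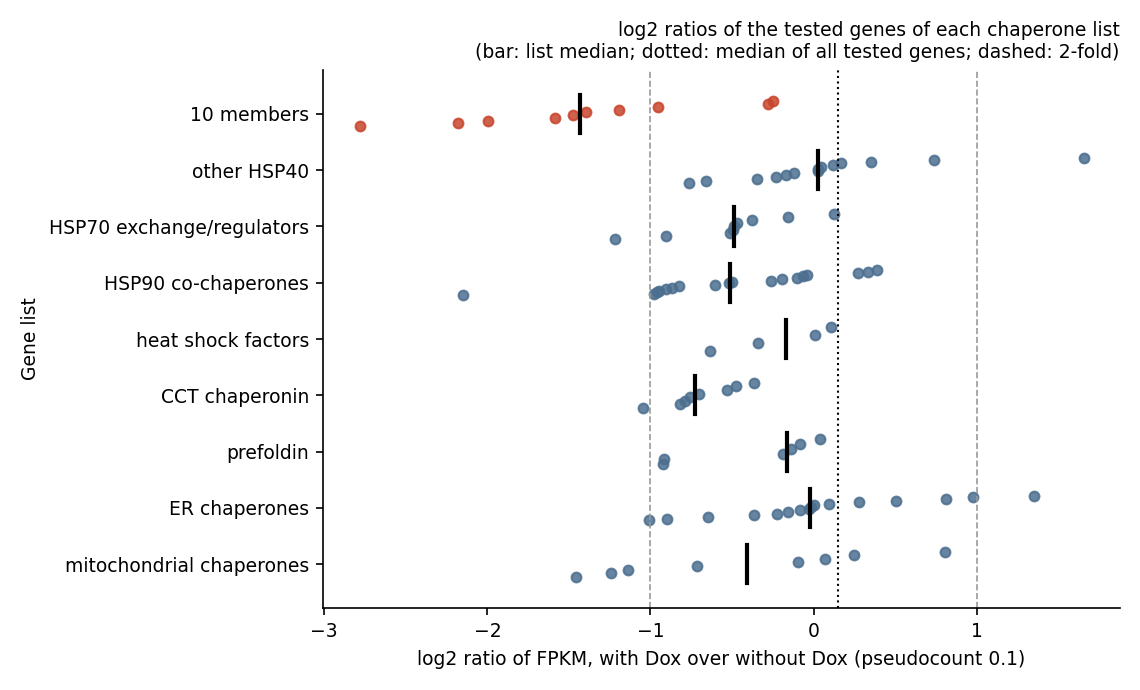
log2 ratio of FPKM, with Dox over without Dox, for the tested genes of each chaperone list (points), with the list median (black bar), the median of all tested genes (dotted line, 0.15) and 2-fold in each direction (dashed lines). The 10 members have the lowest median (-1.43) of the lists drawn, followed by the CCT chaperonin (-0.73). The members were proposed from this same contrast, so nothing is read from their place. Other cytosolic HSP70 and HSP110 genes (median 0.10) and other heat shock response genes (-0.19) are not drawn. Nor are other small heat shock proteins (1.97, from 2 genes that reached 1 FPKM only with Dox).

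The 46 tested cytosolic chaperone and co-chaperone genes outside the members, which include the exchange factors, HSP40 and HSP90 co-chaperone genes above, had a median log2 ratio of -0.21. More than 2-fold lower were 3 of them, a share near the 6.41% of all tested genes, and 3 were higher, beside 17.0%. For the deposited GO term of unfolded protein binding, the tested genes outside the members numbered 99 and their median was -0.17. Of these, 12 lay more than 2-fold lower and 7 higher, beside the same 6.41% and 17.0%. For response to heat, the 97 tested genes outside the members had a median of -0.10. Of these, 4 lay more than 2-fold lower and 9 higher, beside 6.41% and 17.0% of all tested genes. These terms were looked up after the members' values had been seen.

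Among the 1306 genes that reached 100 FPKM in either library, HSPA8 had the third lowest log2 ratio, HSPB1 was 13th, HSP90AB1 26th, HSP90AA1 124th and HSPA4 575th from the lowest. The 2 genes below HSPA8, RPL39P3 and a clone-named row, were listed with an effective length of 1.07 bases without Dox and 0 with Dox, and with 0 FPKM in the library with Dox although they had counts there. The plot of ratio against level shows where the members lie among all tested genes.

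**Figure D5:**
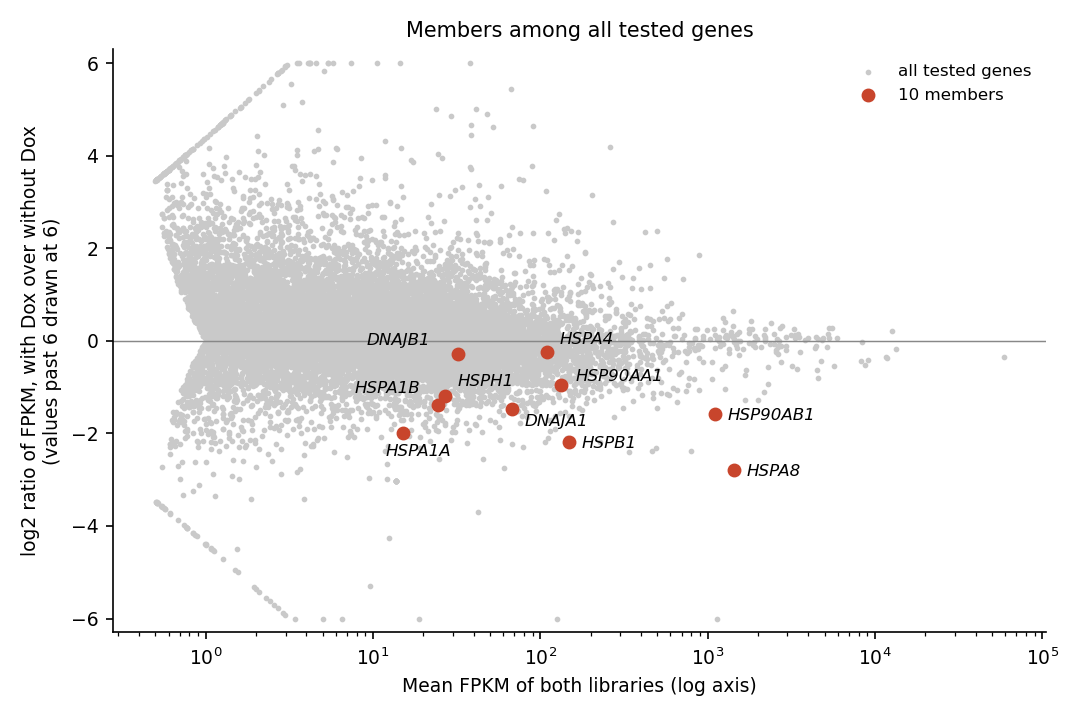
Each grey point is 1 of the 14859 tested genes, with its mean FPKM over both libraries (log axis) and its log2 ratio of FPKM, with Dox over without Dox (values past 6 are drawn at 6). The 10 members are red, and HSPA8 and HSP90AB1 lie at high abundance below most genes of similar level.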

How the data were processed

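Poly(A) RNA libraries of ARP1 cells were sequenced by the authors as 150-base read pairs, 1 library with and 1 without Dox. The deposited tables give expected counts, TPM and FPKM per gene as made by the authors. The labels' processing notes name hg19, Bowtie 0.12.2, HISAT2 2.1.0 and StringTie 1.3.4d without their roles, and the program that gave the expected counts is not given in the sources used here. The tables hold no coordinates. Those printed are from GENCODE 29 (GRCh38), which contains every listed transcript of the 10 members, and, for promoter windows, from RefSeq (GRCh38.p14), and no hg19 coordinate is used. Of the genes with a count, 33.79% and 33.62% had a count that was not whole.

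From the deposited values, log2 ratios of FPKM were computed with a pseudocount of 0.1 over the 14859 genes that reached 1 FPKM in either library. With 1 library per condition no test was run. Counting intervals (95%, Clopper-Pearson, scipy 1.17.1) cover counting error only, and 3 counts, the limit that a count of 0 allows, equal 0.065 and 0.062 CPM (expected counts scaled to library size). The script was tested on simulated data. Alternatives were pseudocounts of 1 and 0.01, TPM, CPM, edgeR 4.0.16 TMM factors and DESeq2 1.42.0 size factors, both on rounded expected counts, other filters, and summed copies.

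The members and lists were chosen with earlier results of these data known. Named were the members, SRD5A1, of each other list up to 6 genes with the largest absolute log2 ratio among those with at least 5 FPKM, and the 10 lowest log2 ratios among genes with at least 100 FPKM. Some genes that this rule names are not reported here. Other names are marked as chosen after their values were seen.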

Additional observations from a re-analysis of the deposited data

How the results depend on the processing

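No paired analysis was possible because each condition has 1 library, so no replicate could be left out. All 10 members stayed below 0 under each alternative scaling and pseudocount. HSPA8 ranged from -2.96 to -2.69, HSP90AB1 from -1.80 to -1.49, HSPB1 from -2.23 to -2.01, HSP90AA1 from -1.01 to -0.80, DNAJB1 from -0.50 to -0.18 and HSPA4 from -0.44 to -0.15 on the log2 scale. The number of members more than 2-fold lower was 7, except under edgeR TMM and DESeq2 size factors, where HSP90AA1 made it 8. The constitutive minus inducible difference was -0.39 without DNAJA1 and HSPB1. The median of all tested genes was 0.15 and moved between -0.042 (edgeR TMM; -0.035 with DESeq2) and 0.25 (TPM). The median of the other HSP40 genes was -0.20 under edgeR TMM and -0.19 under DESeq2, and that of the endoplasmic reticulum chaperones was 0.077 in TPM. More than 2-fold lower were 1897 genes with no filter and 496 with a minimum of 10 FPKM, and higher were 4735 and 850, or 1606 with a pseudocount of 1. edgeR TMM gave 1375 lower and 1809 higher, and DESeq2 gave 1354 and 1822.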

Other observations

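Tubulin genes were among the abundant genes with ratios near that of HSPA8. Among genes that reached 100 FPKM in either library, TUBA1C had 568.96 FPKM without Dox and 107.56 with Dox (log2 ratio -2.40), TUBA1B had 1337.31 and 258.62 FPKM (-2.37), TUBB had 821.57 and 165.19 FPKM (-2.31) and TUBA4A had 130.43 and 26.41 FPKM (-2.30). These genes encode the alpha and beta tubulins, which the CCT chaperonin folds. FABP5, a fatty acid binding protein gene, had 112.1 and 23.8 FPKM (log2 ratio -2.23). RF00003 rested on 7.89 and 1.22 expected counts. MSTRG.123 is an assembled row without a gene name, with 782.62 and 151.38 FPKM (log2 ratio -2.37). The same ratio is the lowest among the tested genes of unfolded protein binding outside the members. The sequence of MSTRG.123 was not compared with those of the members.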
